A study of Mus musculus with 90 samples.

Results

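Stomach was one of 15 tissues collected from female C57BL/6 mice that were either in estrus or in diestrus, and its 6 libraries, out of 90 in the series, are the ones described here. They were taken by their tissue and phase labels. Of these, 3 libraries were from estrus and 3 from diestrus, each from a different mouse of its phase. The labels give an age of 10 weeks, whereas the methods of the study give a younger age. All mice were untreated, and the phase had been read from methylene blue stained vaginal smears. The labels name the tissue only as stomach and do not say which piece of the organ was frozen.

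The mouse stomach holds 2 linings that meet at a ridge. The forestomach carries a keratinized stratified squamous epithelium with a basal layer of Krt5 and Krt14 cells and a cornified surface, whereas the glandular stomach carries pit cells that secrete mucus, parietal cells that secrete acid, and neck and chief cells. Near the duodenum the glands of the antrum differ from those of the corpus. Smooth muscle and, outermost, mesothelium wrap both regions. Estrus is the phase of ovulation and follows the peak of estradiol, whereas diestrus is a phase of higher progesterone. The comparison asks which stomach transcripts differ between these phases in all mice, and which differ from one piece of stomach to the next.

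The deposited values are FPKM, that is, fragments scaled to the length of the gene and to the depth of the library, for 20414 genes. The libraries held approximately 16150000 to 18250000 reads each, as read from the smallest steps of the values, and between 3034 and 3521 genes were listed at 0. Differences are given on the log2(FPKM + 1) scale as estrus minus diestrus, for the 12670 genes whose values averaged 1 FPKM or more. Genes of the glandular stomach marked every library: Atp4a, which encodes the catalytic subunit of the gastric proton pump, lay between 371 and 2058 FPKM. The hormone gene of the antral G cell, Gast, lay between 0 and 1.34 FPKM.

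No gene passed the test between the phases. Limma called 0 genes higher (0% of those tested) and 0 lower (0%) at a Benjamini-Hochberg adjusted p of at most 0.05 and a log2 difference of at least 1, and the smallest adjusted p was 0.671. At an unadjusted p under 0.05 there were 935 genes (7.38%), of which 61 (0.481%) were higher in estrus and 874 (6.9%) lower. One fit of all 90 libraries, whose spread is pooled over the 15 tissues, called 376 genes, 290 higher and 86 lower, and a fit that weighted the stomach libraries by their scatter called 1270. The 2 phases did not overlap at all, 3 libraries against 3, for 1733 genes (13.7%). Of these, 208 (1.64%) lay higher in estrus and 1525 (12%) lower, so that 88.0% of the separated genes had their lower values in estrus. This one-sidedness depended on the scaling, since the same share was 62.0% after quantile normalization and 70.7% after scaling to the upper quartile, and it was 38.7% without the second estrus library. A rank comparison of 3 mice with 3 cannot reach a two-sided exact permutation p below 0.1.

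Large differences in the mean came with separated phases in few of the higher genes and in more of the lower genes. A mean difference of at least 1 on the log2 scale was found for 435 genes higher in estrus (3.43%) and for 145 genes lower in estrus (1.14%). However, only 5 of the 435 higher genes had no overlap of the phases (0.0395% of all genes tested), against 77 of the 145 lower genes (0.608%). In 417 of the 435 higher genes the first and the third estrus libraries lay above all diestrus libraries, and in 418 the second estrus library lay at or below the highest diestrus library. In 94 of them the second estrus library lay below all 3 diestrus libraries. Over all genes tested, the phase held 24.9% of the sum of squares and the mice within a phase 75.1%. The first principal component held 73.3% of the variance. Its scores were 50.4, -44.9 and 66.7 in the estrus libraries and 4.76, -23.2 and -53.8 in the diestrus libraries, so that the second estrus library lay between the second and the third diestrus library.

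Genes of the forestomach lining were among those with higher means in estrus, and 28 of the 435 belonged to the squamous lists. All 31 tested squamous genes had a higher mean in estrus, with a median difference of 2.50 against -0.02 over all genes tested, and none of the 31 had phases without overlap (1.64% of all genes in this direction). Their mean level over the list, on the log2(FPKM + 1) scale, was 7.68, 3.19 and 8.29 in the estrus libraries and 5.83, 4.66 and 1.31 in the diestrus libraries. The first and the third estrus libraries were thus the richest in squamous transcripts, the third diestrus library was the poorest, and the second estrus library fell among the diestrus libraries. The phase held 24.0% of the sum of squares of these genes, close to the share over all genes. Without the second estrus library 30 of the 31 genes were separated, and over all genes the separated higher ones went from 208 to 3962 and the share of the phase from 24.9% to 62.2%. In bulk tissue, fewer cells of a type and less RNA per cell cannot be told apart.

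**Figure D1:**
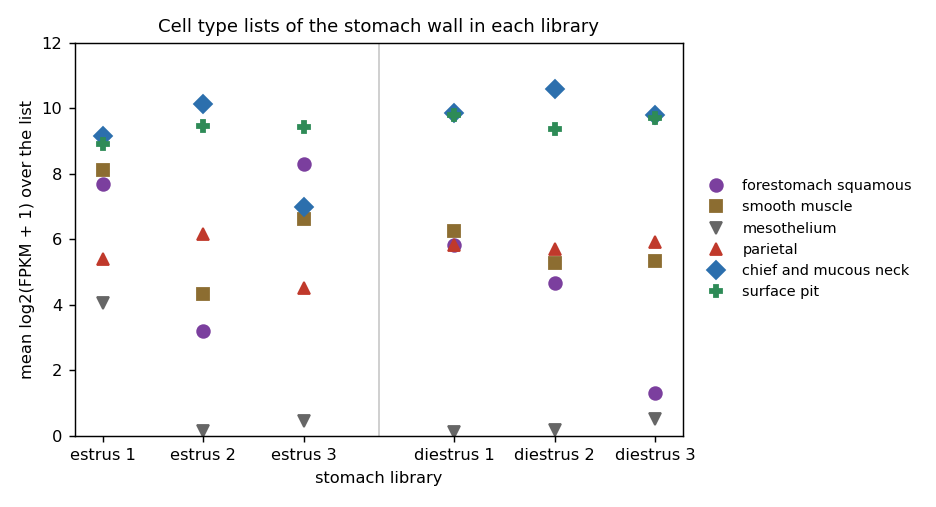
Mean log2(FPKM + 1) of 6 cell type lists (vertical axis) in each of the 6 stomach libraries (horizontal axis); each point is the mean over the tested genes of 1 list in 1 library. The squamous points run from 1.31 in the third diestrus library to 8.29 in the third estrus library, whereas the surface pit points stay between 8.91 and 9.79.

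Krtdap, a secreted protein of differentiating keratinocytes, showed the widest spread within the phases of any gene tested. It was measured at 4900.1, 108 and 11169.6 FPKM in estrus and at 1395, 493 and 0.41 FPKM in diestrus. Its log2 difference of 4.19 came with a standard error of 3.04 (limma, adjusted p = 0.700), and the pooled standard deviation within the phases was 4.55. The 2 high estrus libraries exceeded every diestrus library, the remaining estrus library did not, and a single diestrus library was almost empty of this transcript.

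The basal keratins followed the same order of libraries. Krt5 lay at 445, 19.6 and 845 FPKM in estrus and at 187, 39.1 and 0.17 FPKM in diestrus. Krt14, its partner in the keratin filament, lay at 433, 15.4 and 728 FPKM in estrus and at 192, 38.9 and 0.05 FPKM in diestrus. For both keratins the second estrus mouse had less than 2 of the 3 diestrus mice. Trp63, the transcription factor of basal squamous cells, lay at 28.6, 0.64 and 60.9 FPKM in estrus and at 9.46, 1.86 and 0 FPKM in diestrus, again with the second estrus library among the diestrus libraries.

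The suprabasal and cornified genes spread further. Krt13, a keratin of internal squamous linings, was at 2031, 30.5 and 3256 FPKM in estrus and at 393, 149 and 8.82 FPKM in diestrus. Krt4, the partner of Krt13, was at 1088, 10.3 and 1999 FPKM in estrus and at 162, 56.6 and 0.16 FPKM in diestrus. Lor, which encodes the cornified envelope protein loricrin, was at 1114, 10.2 and 1977 FPKM in estrus and at 171, 75.1 and 0.33 FPKM in diestrus. In each of the 3 genes the lowest estrus value stood below 2 diestrus values, so the phases overlapped over most of their range. The 15 genes with the widest spread within the phases also held Lgals7, Krt1, Krt10, Cnfn, Sprr3, Sbsn, Mt4, Gm94, Fam25c, Dmkn and Asprv1, with pooled standard deviations between 3.44 and 4.55 over the 15 genes. Their log2 differences lay between 3.02 and 4.19 and their adjusted p between 0.700 and 0.702 (limma).

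Several transcription factors showed the order of the keratins. Pitx1, a homeobox factor, was at 118, 9.04 and 189 FPKM in estrus and at 51.1, 15.2 and 4.6 FPKM in diestrus. Sox2, a factor of the foregut, was at 32.1, 6.86 and 59.0 FPKM in estrus and at 15.5, 10.9 and 4.32 FPKM in diestrus. Grhl3, a factor of epidermal differentiation, was at 18.7, 0.54 and 42.5 FPKM in estrus and at 6.89, 2.36 and 0.17 FPKM in diestrus. In all 3 genes the second estrus library lay below at least one diestrus library and the first and the third lay above them all.

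With a covariate fewer genes differed by this much. When the mean of the squamous lists was added to the model, 18 of the 435 higher genes (4.14%) still had a log2 difference of at least 1, compared with 77 of the 145 lower genes (53.1%). Both sets were chosen for their differences in the libraries that also gave the covariate. In 417 of the 435 the same estrus libraries were high that were the richest in squamous transcripts. The contrast is therefore a description and no test. The median difference of the 31 squamous genes became -0.03, which follows from the construction of the covariate. All 77 lower genes without overlap of the phases stayed lower with this covariate, 46 of them by at least 1. They had been chosen for their separation in these same libraries, so this is a description and no test. Limma called 0 genes with the covariate, and 498 genes had an unadjusted p under 0.05. With the gland covariate described further on, 33 of the 435 higher genes (7.59%) and 36 of the 145 lower genes (24.8%) still had a log2 difference of at least 1. These counts are a description as well.

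**Figure D2:**
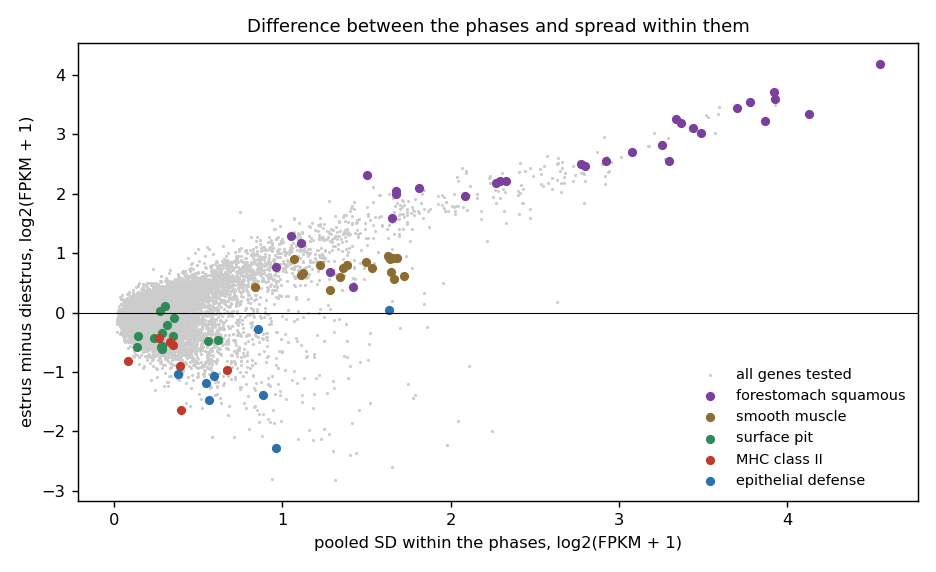
Difference between the phases (vertical axis, estrus minus diestrus in log2(FPKM + 1)) against the pooled standard deviation within the phases (horizontal axis, same scale) for the 12670 genes tested, 1 point per gene; coloured points are members of 5 gene lists. The squamous genes lie along a diagonal on which the spread within a phase grows with the difference, whereas the MHC class II genes lie below 0 at standard deviations with a median of 0.35.

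Other layers of the wall varied from mouse to mouse as well. The 18 tested smooth muscle genes averaged 8.10, 4.32 and 6.63 on the log2(FPKM + 1) scale in estrus and 6.24, 5.28 and 5.34 in diestrus. Acta2, the actin of smooth muscle, was at 1595, 69.1 and 457 FPKM in estrus and at 341, 160 and 136 FPKM in diestrus. Tagln and Actg2, which encode transgelin and enteric actin, were the next most abundant of the list and had the same order in estrus, at 1508, 91.4 and 590.2 FPKM and at 1566, 65.6 and 442 FPKM. The first estrus library was thus the richest in muscle and the second the poorest, and 0 of the 18 genes had phases without overlap, where all genes gave 1.64% higher in estrus. Mesothelial genes stood out in 1 library. Msln, the surface protein mesothelin, was at 16.1, 0.03 and 0.18 FPKM in estrus and at most 0.42 FPKM in diestrus. In that first estrus library the list averaged 4.04 against at most 0.51 in the others. Without it the median difference of the smooth muscle genes turned from 0.75 to -0.13.

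Genes of the gland bearing mucosa had the opposite sign in the mean. All 14 parietal genes had a lower mean in estrus, with a median difference of -0.41, and 1 of them, Car2, had phases without overlap, a share of 7.14% against 12% of all genes in this direction. Atp4a was at 1004, 2058 and 371 FPKM in estrus and at 1174, 1035 and 1626 FPKM in diestrus. Cblif, which encodes gastric intrinsic factor, was at 471, 806 and 35.0 FPKM in estrus and at 750, 626 and 352 FPKM in diestrus. Pgc, which encodes the zymogen progastricsin and was the most abundant gene of the chief cell list, was at 50021, 115889 and 15914 FPKM in estrus and at 51017, 50110.3 and 44337 FPKM in diestrus. The second estrus library had the most and the third the least of all 3 transcripts, so the extremes belonged to the same phase. With the squamous covariate the median of the parietal list was -0.02. Ghrl, which encodes the hormone ghrelin, was at 543, 1036 and 231 FPKM in estrus and at 942, 833 and 665 FPKM in diestrus, and 10 of the 11 tested genes of the gastric endocrine list had a lower mean in estrus.

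Some mucous neck and antral transcripts set the second diestrus library apart. Only 2 of the 6 genes of the antral list passed the filter, and Gast and Pdx1 of that list reached at most 1.34 and 2.19 FPKM in stomach. Muc6, the gel forming mucin of neck cells and deep antral glands, was at 426, 1131 and 120 FPKM in estrus and at 876, 4184 and 2359 FPKM in diestrus. Tff2, the trefoil peptide secreted with it, was at 2983, 5539 and 2763 FPKM in estrus and at 4640, 24876 and 11927 FPKM in diestrus. Gkn3, a gastrokine of the same glands, was at 236, 298 and 47.7 FPKM in estrus and at 468, 2453 and 1045 FPKM in diestrus. Muc6 and Tff2 overlapped between the phases, Gkn3 did not, and all 3 peaked in the second diestrus library and had their lowest value in the third estrus library. Of the 77 lower genes without overlap, 55 had their highest value in the second diestrus library, against 10 in the first and 12 in the third. Their lowest value lay in the third estrus library for 67, against 8 in the first and 2 in the second. By their choice the highest value had to be in diestrus and the lowest in estrus, and the same shares were not counted over other genes.

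The mean of the chief, mucous neck and antral lists was used as a second covariate, the gland covariate, chosen after this order had been seen. With it 76 of the 77 genes stayed lower in estrus, 26 of them by at least 1. The 77 genes were chosen for their separation in the same libraries that gave the covariates, so these counts are a description and no test. Both covariates, each in a model of its own, left 22 genes lower by at least 1. These 22 included Wfdc18, Pigr, Jchain, H2-DMb1, Duox2, Duoxa2, Clca1, Ubd, AA467197, St3gal4, Col11a2, Gkn3, Spdef and Cftr. They also included H2-Q6, H2-Q9 and H2-Q10, class I genes with near-identical copies among which reads may be divided uncertainly. Gkn3 is itself 1 of the 2 tested genes of the antral list and so a part of the gland covariate.

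Genes of antigen presentation by MHC class II had the highest share of the phase among the 35 lists. Class II molecules display peptides from outside the cell to helper T cells, and the mucosa carries them on myeloid cells, B cells and, when induced, on epithelium. All 7 tested genes of the list had a lower mean in estrus, with a median difference of -0.82, and 3 of the 7 (42.9%, against 12% of all genes) had phases without overlap. The phase held 66.9% of their sum of squares, compared with 24.9% over all genes tested. The median was -0.78 with the squamous covariate, and it lay between -0.84 and -0.60 when each library was left out in turn. The count of 3 became 3 to 6 in those subsets, while the share over all genes also moved, from 12% to between 13.9% and 20.6%.

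Both subunits of the peptide loading complex were separated. H2-DMa, which encodes the alpha chain of the DM complex that loads peptides onto class II, was at 4.73, 4.89 and 5.53 FPKM in estrus and at 10.0, 9.31 and 9.58 FPKM in diestrus. Every diestrus mouse had more than every estrus mouse, with means of 5.05 ± 0.423 and 9.64 ± 0.364 FPKM (SD, n = 3 each). The log2 difference was -0.82 with a standard error of 0.11 (limma, adjusted p = 0.671). H2-DMb1, a beta chain of the same complex, was at 12.5, 17.6 and 9.96 FPKM in estrus and at 30.4, 50.2 and 51.1 FPKM in diestrus. Its phases were apart by 0.76 between the highest estrus and the lowest diestrus value, and the log2 difference was -1.64 with a standard error of 0.28 (limma, adjusted p = 0.671). H2-DMb1 and H2-DMb2 are closely related neighbours, so that part of these reads could belong to either gene.

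Cd74, the invariant chain that escorts class II to the endosome, was at 202, 151 and 174 FPKM in estrus and at 489, 253 and 276 FPKM in diestrus. Its log2 difference was -0.89 with a standard error of 0.28 (limma, adjusted p = 0.671). The phases were apart, and the first diestrus library stood well above the other two. The classical chains overlapped slightly. H2-Aa was at 76.9, 48.4 and 62.7 FPKM in estrus and at 121, 74.4 and 81.0 FPKM in diestrus. H2-Ab1 was at 81.1, 53.9 and 73.2 FPKM in estrus and at 128, 79.5 and 87.8 FPKM in diestrus, where only the first estrus library exceeded the lowest diestrus library. Ciita, the coactivator that drives class II genes, was at 0.47, 2.27 and 0.39 FPKM in estrus and at 1.43, 2.4 and 4.93 FPKM in diestrus, with overlap.

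**Figure D3:**
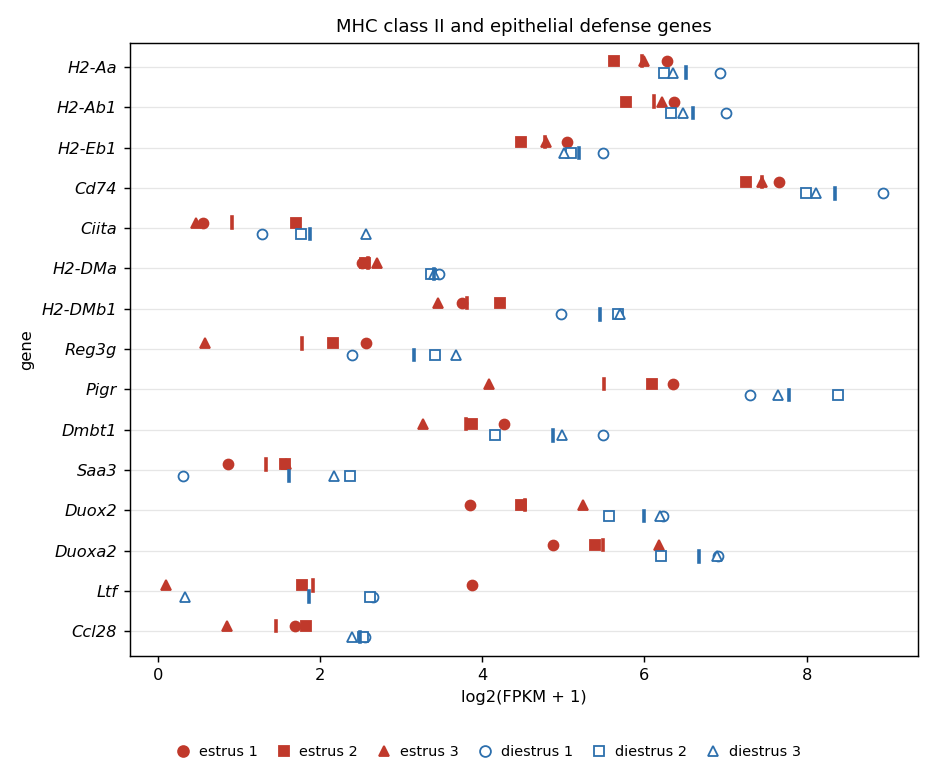
Values of the 7 MHC class II genes and the 8 tested epithelial defense genes in log2(FPKM + 1) (horizontal axis), 1 row per gene; filled red symbols are the 3 estrus libraries, open blue symbols the 3 diestrus libraries and vertical bars the means of a phase. Blue symbols lie to the right of all red symbols for Cd74, H2-DMa, H2-DMb1, Pigr, Duox2, Duoxa2 and Ccl28, whereas Ltf, Saa3 and Reg3g mix.

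The promoters of class II genes are known for a shared module of an X box and a Y box, bound by RFX and NF-Y. The 250 bases before the start of 3 members are shown because the genes of this list had lower values in estrus together. These 3 were the members whose windows held a match. They were read 5′ to 3′ on the strand of the gene from the RefSeq promoters of GRCm38.p6, which hold 4 of the 7 genes, and capitals mark the matches. The windows are chr17:34152941-34153190 (plus strand) for H2-DMb1, chr17:34305617-34305866 (plus strand) for H2-Eb1 and chr17:34287824-34288073 (minus strand) for H2-Aa.
H2-DMb1: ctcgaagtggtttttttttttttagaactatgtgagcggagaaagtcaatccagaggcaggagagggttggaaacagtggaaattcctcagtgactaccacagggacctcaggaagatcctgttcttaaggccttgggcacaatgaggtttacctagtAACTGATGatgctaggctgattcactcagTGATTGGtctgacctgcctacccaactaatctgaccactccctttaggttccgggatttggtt
H2-Eb1: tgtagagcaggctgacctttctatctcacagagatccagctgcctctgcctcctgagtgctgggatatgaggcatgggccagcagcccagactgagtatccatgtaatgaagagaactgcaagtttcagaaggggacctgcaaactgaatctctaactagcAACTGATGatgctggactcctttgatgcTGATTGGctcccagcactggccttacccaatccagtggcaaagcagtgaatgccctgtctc
H2-Aa: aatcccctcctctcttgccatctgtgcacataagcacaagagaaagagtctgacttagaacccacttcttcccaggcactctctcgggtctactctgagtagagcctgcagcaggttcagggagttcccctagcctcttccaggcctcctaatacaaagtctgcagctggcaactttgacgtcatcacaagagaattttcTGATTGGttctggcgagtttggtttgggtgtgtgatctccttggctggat
The capitals mark TGATTGG, written here for the Y box, in all 3 genes, and AACNGATG, written for the X box, in H2-DMb1 and H2-Eb1, both searched on either strand. Of the 5 windows of the 4 genes, 3 held the former and 2 the latter, and the remaining gene, not shown, held neither. Over all 32851 promoter windows of 300 bases, 7.82% held the former and 2.32% the latter. These letters are a description of the sequence and were not tested for binding.

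Genes that guard the mucosal surface formed another list with lower values in estrus. Of its 8 tested genes, 7 had a lower mean in estrus, with a median of -1.13, and 4 (50% against 12% of all genes) had phases without overlap. With the squamous covariate the median was -0.98. Leaving out each library in turn gave medians between -1.34 and -0.80 and between 4 and 6 genes without overlap, against 13.9% to 20.6% of all genes in those subsets.

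Pigr, the receptor that carries dimeric IgA through the epithelium, was at 80.5, 67.4 and 15.9 FPKM in estrus and at 157, 335 and 200 FPKM in diestrus. The lowest diestrus mouse had 1.96 times the value of the highest estrus mouse. The means were 54.6 ± 34.1 and 231 ± 92.7 FPKM (SD, n = 3 each), and the log2 difference was -2.28 with a standard error of 0.65 (limma, adjusted p = 0.671). The difference was -1.94 with the squamous covariate and -1.07 with the gland covariate. Jchain, the chain of plasma cells that joins IgA into the form bound by Pigr, was at 10.7, 12.1 and 2.86 FPKM in estrus and at 52.6, 24.5 and 19.2 FPKM in diestrus. Its phases were apart as well, at a log2 difference of -1.85 with a standard error of 0.58 (limma, adjusted p = 0.671). Ccl28, the chemokine that draws IgA plasma cells to mucosa, was at 2.24, 2.55 and 0.81 FPKM in estrus and at 4.86, 4.79 and 4.27 FPKM in diestrus, again without overlap. The other gene of the B and plasma cell list that could be tested, Derl3, overlapped, and Ms4a1 and Pax5 stayed at or below 0.24 FPKM in all 6 libraries.

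The promoter of Pigr is shown as it belongs to one of the genes with the widest gap. It is the 250 bases before the start on the plus strand, chr1:130826434-130826683 of the same build, and the capitals mark the E box CACGTG, a site known for the factors USF1 and USF2.
Pigr: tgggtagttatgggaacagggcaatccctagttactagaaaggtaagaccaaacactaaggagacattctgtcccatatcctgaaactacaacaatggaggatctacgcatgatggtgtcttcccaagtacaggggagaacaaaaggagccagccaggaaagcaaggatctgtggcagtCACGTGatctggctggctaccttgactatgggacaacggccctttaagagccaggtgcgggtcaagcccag
This E box was found in 7.15% of all promoter windows. A full estrogen response element, with GGTCA and TGACC set 3 bases apart, was found in 0 of the 9 windows of the 12 lower genes with the widest gap and in 0 of the 10 windows of the 12 higher genes, against 0.0700% of all windows. Its arm GGTCA alone, which the full element contains, was in 4 of the 9 and 5 of the 10 windows, against 40.5% of all windows.

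Duox2 and its maturation factor Duoxa2, which make hydrogen peroxide at the apical surface, had an order of libraries that differed from the mucous genes. Duox2 was at 13.4, 21.3 and 37.0 FPKM in estrus and at 74.1, 46.5 and 71.9 FPKM in diestrus. Duoxa2 was at 28.4, 41.0 and 71.8 FPKM in estrus and at 119, 72.8 and 118 FPKM in diestrus. Here the third estrus library had the highest estrus values and the second diestrus library the lowest diestrus values. The log2 difference of Duox2 was -1.47 with a standard error of 0.38 (limma, adjusted p = 0.671), -1.50 with the squamous covariate and -2.05 with the gland covariate. The antimicrobial genes Reg3g, Ltf and Saa3 overlapped between the phases.

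Some mast cell proteases were also separated, and their differences were smaller with the gland covariate. Mcpt1, a chymase of mucosal mast cells, was at 60.2, 81.5 and 13.3 FPKM in estrus and at 108, 167 and 175 FPKM in diestrus. Mcpt2 was at 62.3, 58.9 and 11.6 FPKM in estrus and at 64.8, 115 and 96.9 FPKM in diestrus. Cpa3, the carboxypeptidase of mast cell granules, was at 9.25, 7.57 and 2.04 FPKM in estrus and at 9.6, 16.5 and 12.9 FPKM in diestrus. The separation of Mcpt2 and Cpa3 was narrow, since the first estrus library came close to the first diestrus library. With the gland covariate the log2 difference went from -1.83 to -0.56 for Mcpt1, from -1.32 to -0.09 for Mcpt2 and from -1.09 to -0.22 for Cpa3. Of the 13 tested genes of the myeloid and mast cell list, 3 (23.1% against 12% of all genes) lay lower in estrus without overlap, and they were these 3. Cma1 and Tpsb2, also mast cell proteases of this list, were not among them. The macrophage genes Cd68, Csf1r and C1qa overlapped, with log2 differences of 0.02, -0.01 and 0.01, and of the 10 T and NK cell genes 1 (10% against 12%) was separated, the granzyme gene Gzmb.

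Some genes of the surface pit cells showed small but separated differences. Of the 14 tested genes of the list, 5 (35.7% against 12% of all genes) had phases without overlap, all lower in estrus, and 12 of the 14 had a lower mean, with a median of -0.41. Anxa10, an annexin of gastric pit cells, was at 359, 591 and 502 FPKM in estrus and at 675, 687 and 820 FPKM in diestrus. Ctse, the aspartic protease cathepsin E, was at 591, 718 and 709 FPKM in estrus and at 1034, 918 and 1042 FPKM in diestrus. Cldn18, the tight junction claudin of the stomach, was at 301, 496 and 361 FPKM in estrus and at 549, 515 and 629 FPKM in diestrus. The most abundant pit cell products overlapped, with log2 differences of -0.21 for Tff1, -0.35 for Gkn1 and -0.09 for Gkn2.

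Some factors of gastric epithelial identity had differences of like size. Foxa3 was at 17.5, 22.3 and 24.8 FPKM in estrus and at 32.5, 31.01 and 29.8 FPKM in diestrus. Elf3, an epithelial ETS factor, was at 124, 221 and 182 FPKM in estrus and at 262, 226 and 257 FPKM in diestrus. The groups were separate in both, closely so for Elf3. Hnf4a, Foxa1 and Gata6 were separated too, which made 5 of the 23 tested genes of the regional factor list (21.7% against 12% of all genes), at log2 differences from -0.53 to -0.33. The list as a whole did not go 1 way. Of the 23 genes, 12 had a higher and 11 a lower mean in estrus. Their median was 0.17, and -0.08 with the squamous covariate.

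Among the 12 lower genes with the widest gap between the phases, several are made by secretory epithelium. They were chosen for this gap, so their separation is a description and no test. Clca1, a secreted regulator of mucus, was at 20.4, 13.03 and 12.3 FPKM in estrus and at 70.1, 38.6 and 36.4 FPKM in diestrus. AA467197, which hosts a microRNA and is also known as Nmes1, was at 74.7, 59.3 and 57.5 FPKM in estrus and at 169, 127 and 182 FPKM in diestrus. St3gal4, a sialyltransferase, was at 10.2, 6.56 and 3.49 FPKM in estrus and at 17.8, 27.8 and 19.1 FPKM in diestrus. The lowest diestrus mouse had 1.78, 1.70 and 1.74 times the value of the highest estrus mouse for Clca1, AA467197 and St3gal4, respectively.

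Wfdc18, a secreted protein with a whey acidic protein core, had the widest gap of all, 0.99 on the log2 scale, and low values, at 1.42, 0.32 and 0 FPKM in estrus and at 8.57, 22.7 and 3.81 FPKM in diestrus. Col11a2, a minor fibrillar collagen, was at 1.75, 2.67 and 0.8 FPKM in estrus and at 5.75, 14.5 and 12.3 FPKM in diestrus. Sprr2a3, a cornified envelope gene, was abundant, at 3945, 3429 and 2199 FPKM in estrus and at 7061, 6972 and 6946 FPKM in diestrus. The diestrus libraries nearly coincided for Sprr2a3, which is in neither squamous list and did not follow the order of the squamous genes. In duodenum it was measured as well, at 132 to 1841 FPKM. Its near-identical neighbours of the Sprr2a family make the assignment of reads uncertain. H2-Q10, Cma2, Tmc5 and Nxnl2 completed the 12, together with Pigr and H2-DMb1, and the 12 log2 differences lay between -2.81 and -1.14.

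**Figure D4:**
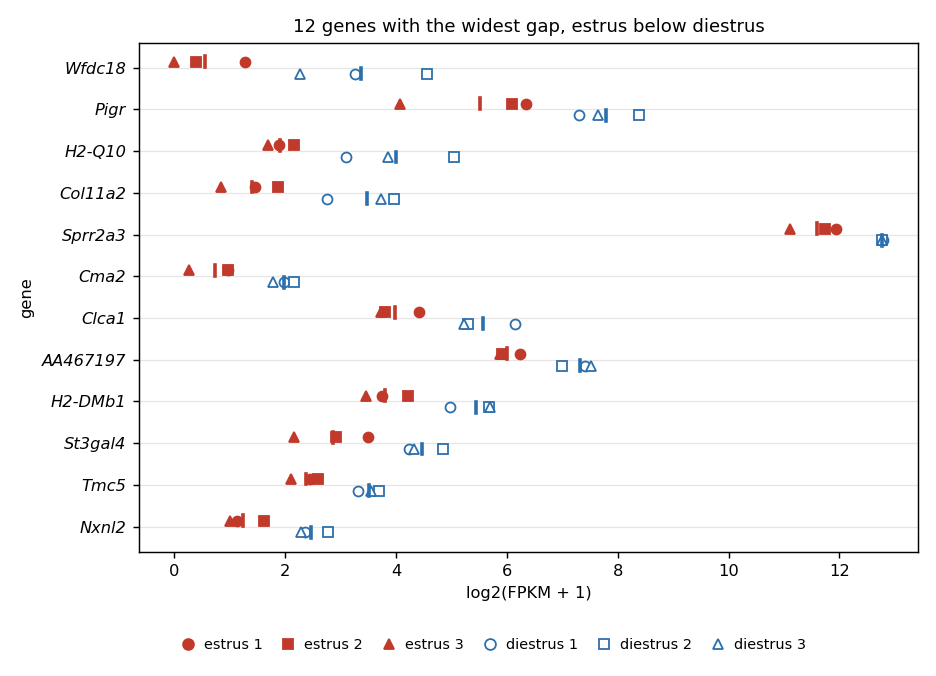
Values of the 12 genes with the widest gap between the phases and lower values in estrus, in log2(FPKM + 1) (horizontal axis), 1 row per gene from the widest gap down; filled red symbols are estrus libraries, open blue symbols diestrus libraries and vertical bars the means. The genes were chosen for this gap, which runs from 0.99 for Wfdc18 to 0.66 for Nxnl2.

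Genes with higher values in every estrus mouse were fewer, and their gaps were narrower. The 12 with the widest gap, chosen for it, had log2 differences between 0.26 and 1.11 and gaps between 0.20 and 0.29. Myc, the growth factor regulated transcription factor, was at 30.2, 22.7 and 43.5 FPKM in estrus and at 19.2, 17.1 and 19.4 FPKM in diestrus. Cebpb, a factor of differentiation and acute response, was at 38.8, 23.8 and 62.0 FPKM in estrus and at 20.02, 19.1 and 17.3 FPKM in diestrus. Ppan, which acts in ribosome assembly, was at 19.8, 18.1 and 33.1 FPKM in estrus and at 14.9, 13.3 and 13.7 FPKM in diestrus. In all 3 genes the diestrus mice were close together, the second estrus mouse was the lowest of its phase, and the third estrus mouse the highest.

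Smaller, tighter differences came from Pop5, a subunit of RNase P, at 17.9, 18.3 and 18.8 FPKM in estrus and at 15.4, 15.2 and 14.8 FPKM in diestrus. Clpb, a mitochondrial disaggregase, was at 10.7, 10.1 and 10.7 FPKM in estrus and at 8.03, 8.68 and 8.34 FPKM in diestrus. Mettl16, an RNA methyltransferase, was at 8.31, 8.37 and 9.54 FPKM in estrus and at 5.51, 7.05 and 6.23 FPKM in diestrus. The pooled standard deviation was 0.03 for Pop5 and 0.04 for Clpb, under the 0.23 of the median gene. Nudt6, Gm44504, Bri3bp, Phlda2, Ppp2r2c and a gene without a symbol made up the remainder. Myc had a log2 difference of 0.71, 0.52 with the squamous covariate and 0.28 with the gland covariate, and Cebpb 1.00, 0.64 and 0.42. The proliferation list did not follow Myc: 19 of its 22 tested genes had a lower mean in estrus, with a median of -0.18.

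**Figure D5:**
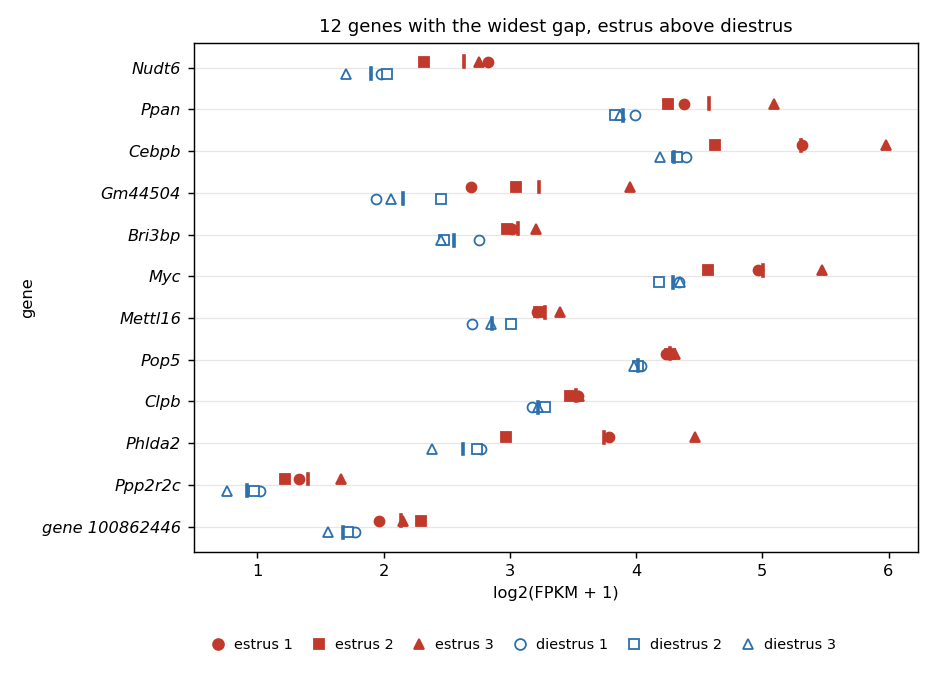
Values of the 12 genes with the widest gap between the phases and higher values in estrus, in log2(FPKM + 1) (horizontal axis), 1 row per gene; filled red symbols are estrus libraries, open blue symbols diestrus libraries and vertical bars the means. The genes were chosen for this gap, which runs from 0.29 for Nudt6 to 0.20 for the last row.

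Esr1, Esr2 and Pgr, receptors for the ovarian hormones, were close to the limit of the measurement in stomach. Esr1, the estrogen receptor alpha, was at 0.9, 0.17 and 0.54 FPKM in estrus and at 0.18, 0.16 and 0.19 FPKM in diestrus. It fell under the filter, and the first and the third estrus libraries, those rich in smooth muscle and squamous genes, held its higher values. Esr2, Pgr and Cyp19a1, which encode estrogen receptor beta, the progesterone receptor and aromatase, were at most 0.21, 0.26 and 0.03 FPKM. Hsd17b1, which makes estradiol, and Sult1e1, which sulfates it, reached 0.27 and 3.38 FPKM at most and fell under the filter too. Gper1, a membrane estrogen receptor, was at 6.06, 7.89 and 0.57 FPKM in estrus and at 5.46, 6.62 and 3.16 FPKM in diestrus, with overlap.

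Of the 15 genes of the steroid receptor and enzyme list, 8 could be tested, and 1 of them (12.5% against 12% of all genes) was separated. This was Nr3c2, the mineralocorticoid receptor, at 1.71, 1.44 and 1.28 FPKM in estrus and at 2.35, 1.92 and 2.29 FPKM in diestrus. Hsd17b2, which inactivates estradiol, was at 39.9, 5.79 and 71.4 FPKM in estrus and at 23.3, 9.75 and 6.87 FPKM in diestrus, with the first and the third estrus library above the others, as for the squamous genes. Its log2 difference of 1.10 was -0.13 with the squamous covariate. The log2 differences of Pgrmc1, Pgrmc2, Nr3c1, Hsd17b4 and Hsd11b2 lay between -0.33 and 0.25, all with overlap. Of the 14 tested genes of the estrogen response list, 6 had a higher and 8 a lower mean in estrus, and Muc1, a membrane mucin, was the only one separated (7.14% against 12%), at a log2 difference of -0.62.

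The duodenum, the next segment of the gut taken by the study from mice of the same phases, was compared gene by gene through an interaction term. Of 12990 genes tested, limma called 0 with a higher phase difference in stomach (0%) and 1 with a lower one (0.0077%), whereas 1010 and 439 genes had an unadjusted p under 0.05 in these directions. This gene was Fkbp5, a cochaperone of the glucocorticoid receptor that is induced by glucocorticoids. In stomach it was at 9.94, 10.1 and 11.6 FPKM in estrus and at 15.0, 9.43 and 12.8 FPKM in diestrus. In duodenum it was at 18.4, 23.4 and 22.9 FPKM in estrus and at 4.29, 3.31 and 2.84 FPKM in diestrus. The phases overlapped in stomach and were far apart in duodenum. The log2 difference was -0.19 in stomach and 2.34 in duodenum, and they differed by -2.53 with a standard error of 0.27 (limma, adjusted p = 0.0209). The first estrus library of the duodenum held gastric RNA, with Gkn2 at 15012 FPKM against at most 2.96 FPKM in the other five, and without that library 8 genes were called, all lower in stomach and Fkbp5 among them. The adjusted p of Fkbp5 was 0.122, 0.0710, 0.0782 and 0.0684 without the first estrus, the third estrus, the first diestrus and the third diestrus library of the stomach, respectively (limma). According to the methods, several tissues came from each mouse, but the labels do not tie a stomach to a duodenum. With the replicate number as a block the adjusted p of Fkbp5 was 0.154, and with phase and number together as a block it was 0.213, and 0 genes were called in either fit (limma).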

How the data were processed

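RNA-seq libraries of stomach from 3 mice in estrus and 3 in diestrus were analysed, with the 6 duodenum libraries for 1 comparison. Per the labels, RNA enriched for mRNA was sequenced on a BGISEQ-500, and the submitters' processing notes name Bowtie2 2.2.5, RSEM 1.2.8 and GRCm38.p5. The deposited table, made by the authors, holds 1 value per gene and library, read here as FPKM (fragments scaled to gene length and library depth). The sources used here do not name the unit, but the values fall in whole steps that shrink with the length of the gene. Depth was approximated from these steps in 1473 short genes, so that counting error can only be estimated. Symbols came from RefSeq for 20265 of the 20414 genes.

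Values were tested as log2(FPKM + 1), for genes that averaged 1 FPKM or more, with limma 3.58.1 (R 4.3.3; intensity trend; Benjamini-Hochberg over all genes tested), only stomach libraries entering the comparison of the phases. The study used a count test, for which FPKM is not suited. On simulated data 78.5% of 200 genes changed by 1.5 and 93% of 200 changed by 3 on the log2 scale were recovered among 12670 genes. In these 2 runs 8 and 6 unchanged genes were called. The changed genes were drawn from those above a minimum mean level, and the noise was drawn for each gene on its own. The real libraries shared 1 component with 73.3% of the variance, so the recovery does not measure the power of the real comparison. Separated genes, shares of the sum of squares and 35 gene lists are descriptions without a test. Genes were named by their gap between the phases (12 in each direction), their spread within them (15), membership of the steroid list, and abundance within the lists of the stomach wall; some items that fall under this rule are not reported here, and further list members and genes lower by at least 1 were named after their values were seen. The members and lists were chosen with earlier results of these data known. Alternatives were another pseudocount (0.1 or 10), filter (5 FPKM or none) and scaling, each library left out, covariates for cell content, array weights, a fit of all 90 libraries and the replicate block. Promoter motifs were searched in RefSeq windows with Python 3.11.15.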

Additional observations from a re-analysis of the deposited data

Results flagged for a closer look

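The phase difference of Fkbp5 in stomach minus that in duodenum was -2.53 on the log2(FPKM + 1) scale, with a standard error of 0.27, and it was flagged because the interaction of tissue and phase passed the test (limma, adjusted p = 0.0209). In duodenum all 3 estrus libraries were higher than all 3 diestrus libraries, whereas the phases overlapped in stomach. The interaction kept its sign under all 15 alternatives, with values between -2.82 and -1.34, and its adjusted p lay between 0.00922 and 0.213, the highest values, 0.154 and 0.213, being those with a replicate block. Which tissue would carry a phase effect in other mice was not tested.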

How the results depend on the processing

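The count of genes called between the phases in stomach was 0 under both pseudocounts, both filters, both scalings, the 3 planned covariates and the gland covariate chosen after seeing the data, with limma in each case. It was 376 in one fit of all 90 libraries and 1270 with array weights, whose estimation stopped before convergence. Leaving out 1 stomach library gave 0 to 1 calls, namely Rps27rt without the third estrus library and Gm43828 without the third diestrus library, and 1 gene, Rps27rt, was called without both the first and the third estrus libraries, a setting added later. The interaction with duodenum called 2 genes after quantile normalization and 2 after upper quartile scaling, 0 to 140 without 1 stomach library (140 without the second estrus library, 0 without the first estrus, the third estrus or the first diestrus library), and 8 without the duodenum library that held gastric RNA. In the setting without the third diestrus library the single gene called was not Fkbp5. Separated genes with higher values in estrus numbered 336 without a filter, 545 after quantile normalization, 454 after upper quartile scaling and 280 to 3962 with 1 library left out, against 208. Those with lower values numbered 888 after quantile normalization and 1761 to 2610 with 1 library left out, against 1525. The share of the sum of squares between the phases was 17.6% to 62.2% with 1 library left out. The second estrus library gave the upper end of both ranges of higher values, and the cause was not tested.

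Libraries of the same replicate number did not stand out as pairs. Deviations from the phase means correlated at 0.475, -0.0522 and -0.517 for libraries of the same number, and between -0.745 and 0.706 for libraries of different numbers. Whether the numbers mark a pairing was not tested. With the replicate block 0 genes were called between the phases and 0 in the interaction. Phase and number together as a block for both tissues, added after seeing the data, also gave 0 in the interaction. Of the 24 genes named for their gap, no difference changed its sign under any alternative. At both limits, of adjusted p and of log2 difference, 22 refitted values passed, all with array weights or in the fit of all libraries, whereas 453 did not. Some of the 453 missed only the limit on the log2 difference, such as Nudt6 with array weights (0.92, limma, adjusted p = 0.0151). These genes were chosen for separated phases, so leaving out 1 library or changing the pseudocount could not have changed the sign. Their kept signs are therefore a description and no test. The median difference of all genes was -0.02, between -0.10 and -0.05 with a covariate, and -0.18 without the first and the third estrus libraries. Low genes such as Ciita and Esr1, near 1 FPKM, rest on few reads at this depth, and with 3 mice a phase only large and even differences could have been called.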

Other observations

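Secretory stress genes and interferon genes also had lower means in estrus, and the medians of both lists were closer to 0 or of the other sign with the squamous covariate. Of the 14 genes of the endoplasmic reticulum stress list, 13 had a lower mean in estrus, with a median of -0.46, which was -0.16 with the squamous covariate. Hspa5, the chaperone BiP, was at 216, 347 and 209 FPKM in estrus and at 301, 410 and 422 FPKM in diestrus, with overlap. All 12 tested interferon-stimulated genes had a lower mean in estrus, with a median of -0.22, which was 0.14 with that covariate, and 0 of the 12 were separated, against 12% of all genes lower in estrus.

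Wnt4, a gene of the estrogen response list, was at 28.5, 2.14 and 62.7 FPKM in estrus and at 12.4, 4.44 and 1.48 FPKM in diestrus, and its log2 difference of 1.68 was 0.02 with the covariate.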
